A study of Penicillium oxalicum with 18 samples.

Results

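Transcripts of 5 genes for secreted cellulose-degrading enzymes were described in the filamentous fungus Penicillium oxalicum, across 3 strains and 2 carbon sources. The genes were taken by identifier from the expression table, 5 of its 9277 genes: the cellobiohydrolases Cel7A-2 (PDE_07945) and Cel6A (PDE_07124), the endoglucanases Cel7B (PDE_07929) and Cel5B (PDE_09226), and Cel61A (PDE_05633). The strains were wild type 114-2, a hap3 deletion strain and a hap5 deletion strain. All cultures were grown for 24 h at 30 °C on 2% glucose as preculture, and the mycelium was then moved for 24 h to modified Mendal's medium with either 2% glucose or 1% bran and 1% microcrystalline cellulose. Each of the 6 groups held 3 libraries, 18 in all. The labels do not say whether the libraries of a group came from separate cultures, or whether a deletion strain was 1 clone, so p-values measure only how these libraries vary, which may be technical variation. The deposited value is FPKM, a fragment count scaled by gene length and by the number of mapped fragments. In bulk libraries, fewer expressing cells and less RNA per cell cannot be told apart.

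Cellulose is degraded by enzymes that cut it in different ways. Cellobiohydrolases release cellobiose from chain ends, Cel7 enzymes from the reducing end and Cel6 enzymes from the non-reducing end. Endoglucanases such as Cel7B and Cel5B cut inside the chain and make new ends. Cel61 proteins, once counted as glycoside hydrolases, are lytic polysaccharide monooxygenases, copper enzymes that cleave the chain by oxidation. In cellulolytic fungi these genes are generally near silent on glucose and induced together on cellulose. Hap3 and Hap5 are subunits of the Hap complex, which binds the CCAAT motif of fungal promoters.

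The table carries no gene names, so the deletions could not be checked by name. A search by values was made, with the genes chosen after their values were seen. For each deletion strain it took genes at 2 FPKM or more in all 12 libraries of the other strains. Of these, 1 gene for each deletion strain was at least 4 times lower in all 6 of its libraries than in every other library. PDE_02832 stood at 8.93 to 12.18 FPKM in the strain lacking hap3 and at 134.38 FPKM or more elsewhere. PDE_01016 stood at 1.43 to 2.22 FPKM in the strain lacking hap5 and at 118.83 FPKM or more elsewhere. These gaps follow from how the genes were chosen, and whether the genes are hap3 and hap5 was not tested. Library totals ran from 966280 to 1202683 FPKM, the highest in replicate 2 of the hap3 deletion on glucose. Sequencing depth is unknown, so no interval for counting error is given.

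Wild type transcripts of all 5 genes were scarce on glucose and abundant on bran and cellulose. Cel7A-2, which acts on the reducing chain end, stood at 0.84, 0.61 and 0.60 FPKM in the 3 glucose libraries and at 2268, 2107 and 1987 FPKM on bran and cellulose, where it was 43rd of 9277 genes by mean level. Cel6A, which acts on the other chain end, stood at 0.97, 1.06 and 1.41 FPKM on glucose and at 970.5, 898.6 and 841.4 FPKM on bran and cellulose. The glucose and the bran and cellulose libraries of both cellobiohydrolases lay far apart. Cel5B rose from 1.397 ± 0.196 FPKM to 807.4 ± 92.1 FPKM (SD, n = 3). Cel7B had the highest glucose level of the 5 genes, 3.633 ± 0.735 FPKM, and reached 566.7 ± 26.5 FPKM. Cel61A was listed at 0 on glucose in each wild type library and had 650.4, 607.1 and 534.4 FPKM on bran and cellulose, so no fold is given for it.

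The test of this response called 5 of 5 genes higher on bran and cellulose, where 23.2% of 8681 tested genes were called higher in wild type. A gene was called at a limma p, adjusted over all tested genes by the Benjamini-Hochberg method, under 0.05 and a log2 change of 1 or more in size on the log2(FPKM + 1) scale, which understates the change of low genes. The log2 change was 10.30 for Cel7A-2 (SE 0.15, adjusted p = 6.3e-17), the second largest rise among the tested genes. It was 8.72 for Cel6A (SE 0.18, adjusted p = 2.98e-15), 8.39 for Cel5B (SE 0.18, adjusted p = 3.09e-15) and 6.95 for Cel7B (SE 0.15, adjusted p = 3.78e-15). Cel61A was called too (adjusted p = 2.18e-17), without a fold. The median over all tested genes was 0.157, and quantile normalization moved it by -0.268 and the share of higher genes among all calls from 62.52% to 48.84%.

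**Figure D1:**
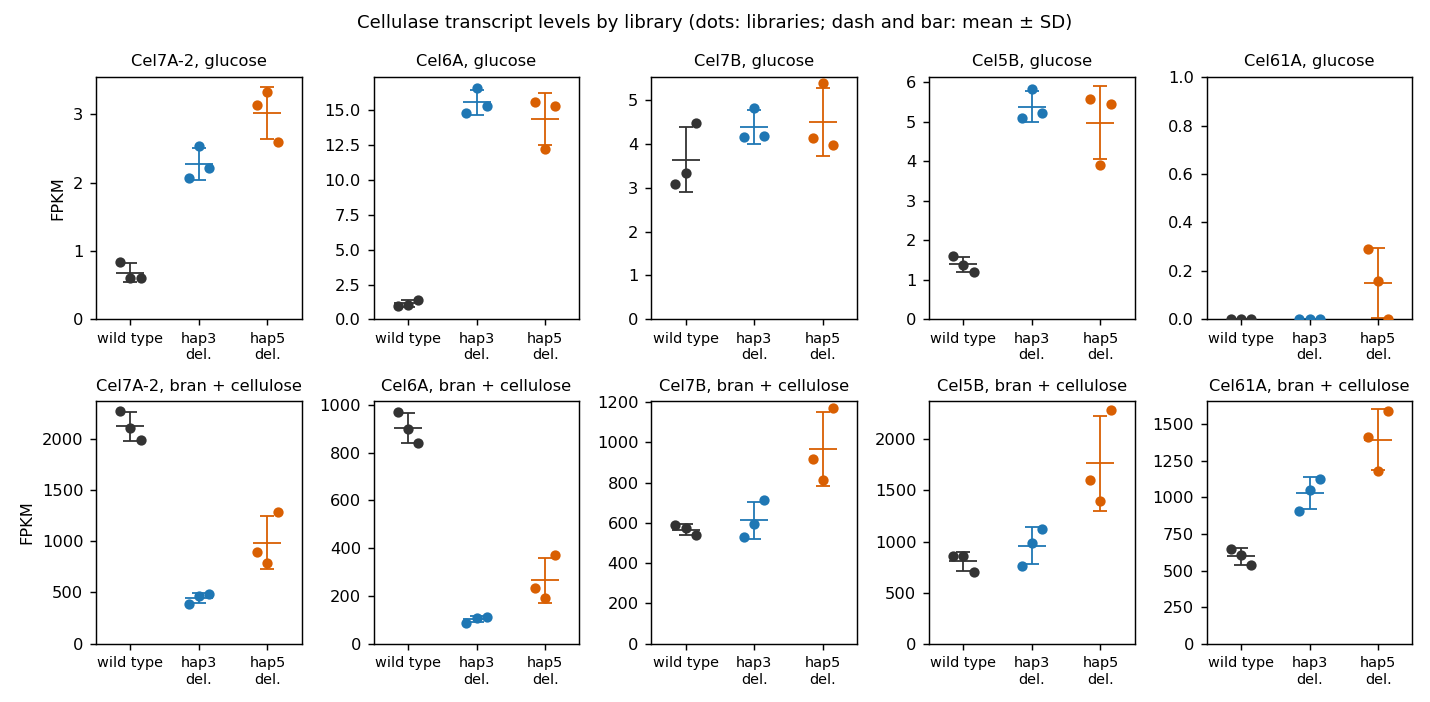
FPKM of the 5 genes (columns) on glucose (upper row) and on bran and cellulose (lower row), with 1 dot per library and the mean and SD of 3 libraries; each panel has its own linear axis from 0. On bran and cellulose the cellobiohydrolases Cel7A-2 and Cel6A are highest in wild type, whereas Cel7B, Cel5B and Cel61A are highest in hap5 deletion cultures.

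On glucose, 3 of the genes stood higher in the deletion strains than in wild type, in values that remained low. Cel6A was at 14.83, 16.60 and 15.29 FPKM in hap3 deletion cultures and at 15.61, 12.20 and 15.33 FPKM in hap5 deletion cultures, against at most 1.41 FPKM in wild type. Every deletion library lay above every wild type library, as it did in 36.5% of tested genes for hap3 and 47.6% for hap5. Cel6A rose by a log2 change of 2.95 in hap3 deletion cultures (SE 0.18, adjusted p = 2.23e-09) and of 2.84 in hap5 deletion cultures (SE 0.18, adjusted p = 3.21e-09), and the ratios of mean FPKM were 13.6 and 12.5. Cel6A was the highest of the 5 genes in all 6 deletion libraries on glucose, and in wild type it lay below Cel7B, with a range that overlapped that of Cel5B.

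Cel5B on glucose was at 5.11, 5.83 and 5.22 FPKM in hap3 deletion cultures and at 5.57, 3.92 and 5.45 FPKM in hap5 deletion cultures, against 1.60, 1.38 and 1.21 FPKM in wild type. Deletion of hap3 changed it by 1.42 on the log2 scale (SE 0.18, adjusted p = 5.17e-06) and deletion of hap5 by 1.31 (SE 0.18, adjusted p = 1.15e-05). Neither deletion strain overlapped with wild type, as for 36.5% of tested genes with hap3 and 47.6% with hap5 in this direction. Both changes were called. Cel7A-2 was at 2.07, 2.53 and 2.22 FPKM in hap3 deletion cultures and at 3.13, 3.33 and 2.59 FPKM in hap5 deletion cultures, also above all wild type libraries. It rose in hap5 deletion cultures, by a log2 change of 1.25 (SE 0.15, adjusted p = 2.76e-06). Deletion of hap3 gave a change of 0.96 (SE 0.15, adjusted p = 4.43e-05), short of the minimum of 1 and not called. That call turned on the constant added to FPKM, since with 0.1 in place of 1 the change was 1.61 and called, and it was also called without replicate 1 of the hap3 deletion (1.01) or of wild type (1.03).

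Cel7B and Cel61A were not called on glucose. Cel7B was at 4.38 ± 0.381 FPKM in hap3 deletion cultures and 4.50 ± 0.775 FPKM in hap5 deletion cultures, ranges that overlapped the wild type range of 3.09 to 4.47 FPKM. The 95% intervals of its log2 change were -0.09 to 0.54 and -0.07 to 0.57, and under quantile normalization its changes turned negative, at -0.20 and -0.42. Cel61A was listed at 0 in all hap3 deletion libraries and at 0.29, 0.16 and 0 FPKM in hap5 deletion cultures. With 0.1 as the added constant the 1.11 log2 change of Cel61A in hap5 deletion cultures was called (adjusted p = 0.0087), which rests on values of at most 0.29 FPKM.

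In all, 2 of 5 genes were called in hap3 deletion cultures on glucose and 3 of 5 in hap5 deletion cultures, each higher, where 15.3% and 17.6% of all tested genes were called higher. The median changes of the 5 genes were 0.96 and 1.25, beside 0.136 and 0.236 over all tested genes. Quantile normalization moved the medians of all genes by -0.139 and -0.259. Under it the rise of Cel5B was 0.90 and 0.54 and that of Cel7A-2 in hap5 deletion cultures 0.49, which left Cel6A as the 1 gene called in each strain. The share of higher genes among all calls went from 63.65% to 52.12% in hap3 deletion cultures and from 71.56% to 54.22% in hap5 deletion cultures, where median-of-ratios scaling gave 60.74%. Both comparisons use the same wild type libraries, so their results are not independent of each other.

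**Figure D2:**
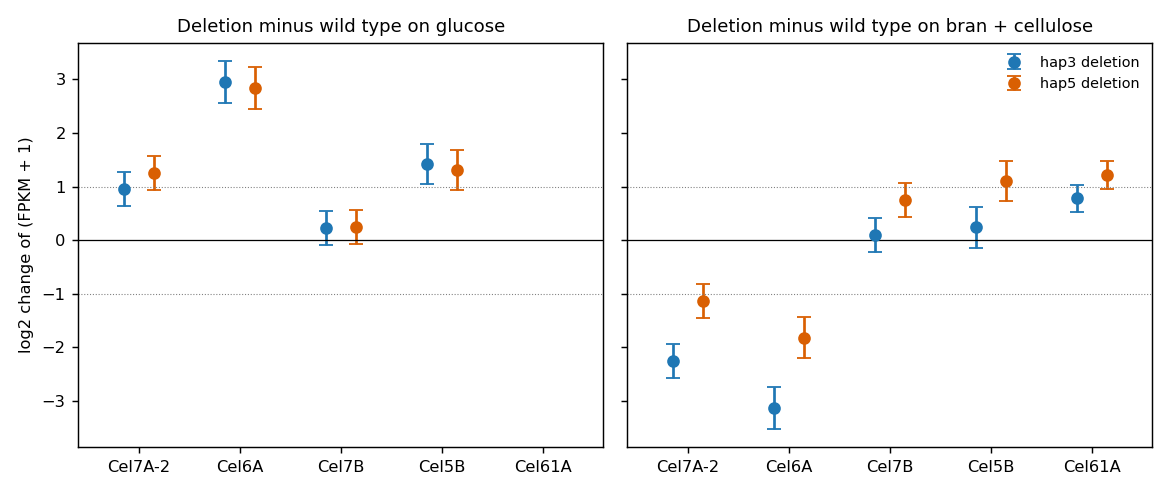
Difference between each deletion strain and wild type on the log2(FPKM + 1) scale, on glucose (left) and on bran and cellulose (right); dots are fitted changes, bars 95% intervals from limma over 3 libraries a group, and dotted lines the minimum change for a call. Cel7A-2 and Cel6A lie above 0 on glucose and below 0 on bran and cellulose, and Cel61A is left out on glucose because it was listed at 0 in all wild type and hap3 deletion libraries and in 1 hap5 deletion library.

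On bran and cellulose both cellobiohydrolase transcripts fell in both deletion strains. Cel7A-2 was at 388.4, 465.3 and 485.1 FPKM in hap3 deletion cultures and at 895.0, 782.7 and 1280 FPKM in hap5 deletion cultures, against 1987 FPKM or more in wild type. No deletion library reached the wild type range, as for 35.6% of tested genes in hap3 deletion cultures and 36% in hap5 deletion cultures in this direction. The log2 change of Cel7A-2 was -2.25 in hap3 deletion cultures (SE 0.15, adjusted p = 2.52e-09), a wild type mean 4.75 times the deletion mean. It was -1.13 in hap5 deletion cultures (SE 0.15, adjusted p = 6.47e-06), a wild type mean 2.15 times the deletion mean. Without replicate 2 of the hap5 deletion that change was -0.98 and was no longer called.

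Cel6A showed the largest falls of the 5 genes on this medium. It was at 88.13, 109.4 and 111.1 FPKM in hap3 deletion cultures and at 232.7, 192.8 and 369.9 FPKM in hap5 deletion cultures, against 841.4 FPKM or more in wild type. The 3 strains did not overlap. In this direction, 35.6% of tested genes in hap3 deletion cultures and 36% in hap5 deletion cultures had no overlap with wild type. The log2 change was -3.13 in hap3 deletion cultures (SE 0.18, adjusted p = 6.21e-10) and -1.82 in hap5 deletion cultures (SE 0.18, adjusted p = 3.71e-07), with wild type means 8.78 and 3.41 times the deletion means. By mean level Cel6A ranked 147th of all genes in wild type, 1664th in hap3 deletion cultures and 638th in hap5 deletion cultures.

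Neither endoglucanase transcript was called lower. Cel7B, of the same enzyme family as Cel7A-2, had wild type values of 588.5, 574.3 and 537.2 FPKM, which overlapped the 530.3, 596.2 and 711.5 FPKM of hap3 deletion cultures. Its log2 change there was 0.10 (SE 0.15, adjusted p = 0.563), with a 95% interval of -0.21 to 0.42, and its sign turned under quantile normalization and without replicate 3 of the hap3 deletion. In the hap5 deletion Cel7B was at 919.2, 812.5 and 1170 FPKM, above all wild type libraries, as for 39.7% of tested genes. Its change of 0.75 (SE 0.15, adjusted p = 0.000368) was under the minimum for a call.

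Cel5B had wild type values of 860.6, 860.5 and 701.0 FPKM, beside 765.0, 988.6 and 1126 FPKM in hap3 deletion cultures. These groups overlapped, and the log2 change of 0.24 (SE 0.18, adjusted p = 0.252) had a 95% interval of -0.14 to 0.61. In the hap5 deletion Cel5B was at 1604, 1399 and 2291 FPKM, each above the wild type libraries, as for 39.7% of tested genes. It rose by a log2 change of 1.10 (SE 0.18, adjusted p = 5.43e-05), a ratio of means of 2.19. Without replicate 3 of the hap5 deletion the change was 0.90, and under quantile normalization 0.92, neither of which was called.

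Cel61A, the oxidative enzyme, stood above wild type in every deletion library. It was at 908.6, 1051 and 1124 FPKM in hap3 deletion cultures and at 1411, 1180 and 1593 FPKM in hap5 deletion cultures, against 650.4 FPKM at most in wild type. No library of either deletion strain overlapped wild type, as for 40.8% of tested genes in hap3 deletion cultures and 39.7% in hap5 deletion cultures in this direction. The log2 change was 0.78 in hap3 deletion cultures (SE 0.12, adjusted p = 3.14e-05), which was under the minimum for a call. Cel61A rose in hap5 deletion cultures by 1.22 (SE 0.12, adjusted p = 2.7e-07), a ratio of means of 2.33.

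Counted together, 2 of the 5 genes were lower and 0 higher in hap3 deletion cultures on bran and cellulose, where 13.4% of all tested genes were called lower and 16.7% higher. In the hap5 deletion 2 were lower and 2 higher, where 13.2% were called lower and 16.4% higher. The median change of the 5 genes was 0.10 in hap3 deletion cultures and 0.75 in hap5 deletion cultures, beside 0.0509 and 0.0387 over all tested genes. A median hides the split here, since the calls in hap5 deletion cultures ran in both directions. The wild type libraries are again shared by both comparisons.

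On bran and cellulose, direct comparison of the deletion strains put all 5 transcripts higher in hap5 deletion cultures. For each gene the lowest hap5 deletion library lay above the highest hap3 deletion library, an absence of overlap found in this direction for 13% of tested genes. Cel6A was higher by a log2 change of 1.31 (SE 0.18, adjusted p = 0.00186) and Cel7A-2 by 1.12 (SE 0.15, adjusted p = 0.00132), and both were called, where 0.276% of all tested genes were called higher. Cel5B at 0.86 (SE 0.18, adjusted p = 0.0196) and Cel7B at 0.65 (SE 0.15, adjusted p = 0.0332) had adjusted p-values under 0.05 but changes under 1. Cel61A, at 0.44 (SE 0.12, adjusted p = 0.0824), did not pass.

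Those calls were sensitive to how spread was estimated. In a fit on the 6 compared libraries alone the adjusted p was 0.0777 for Cel6A and 0.0691 for Cel7A-2, and neither was called. Without replicate 3 of the hap5 deletion, the library with the highest value of every gene in its group, the change of Cel7A-2 was 0.91 and not called, while without replicate 2 of that group Cel5B was called, at 1.02. On glucose the deletion strains gave 0 calls among the 5 genes, and 0 at an unadjusted limma p under 0.05, where 4.01% of tested genes were called. Quantile normalization moved the share of higher genes among those calls from 74.14% to 60.88%. There, with 0.1 as the added constant, Cel61A was called at 1.11 from values of at most 0.29 FPKM. The 95% interval of Cel6A on glucose was -0.50 to 0.28 and that of Cel7A-2 was -0.02 to 0.61.

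All 5 genes still rose on bran and cellulose in each deletion strain, but by amounts that differed between genes. In the hap3 deletion 5 of 5 were called higher, where 18.6% of tested genes were, and in hap5 deletion cultures 5 of 5, where 13.8% were. Of the 4 genes with a fold, Cel7B had the most even response, with log2 changes of 6.95 in wild type, 6.83 in hap3 deletion cultures and 7.45 in hap5 deletion cultures. Cel6A had the most uneven, with 8.72, 2.64 and 4.07. In FPKM, the mean of Cel6A on bran and cellulose was 788 times its glucose mean in wild type, 6.61 times in hap3 deletion cultures and 18.4 times in hap5 deletion cultures. The ratio for Cel7A-2 was 3103 in wild type, 196 in hap3 deletion cultures and 327 in hap5 deletion cultures. The wild type ratios divide by low glucose means, 1.15 FPKM for Cel6A and 0.683 FPKM for Cel7A-2, at unknown depth. Between single wild type libraries they ran from 597 to 1001 for Cel6A and from 2365 to 3780 for Cel7A-2. In the hap3 deletion quantile normalization moved the share of higher genes among all calls from 57.87% to 47.47%.

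**Figure D3:**
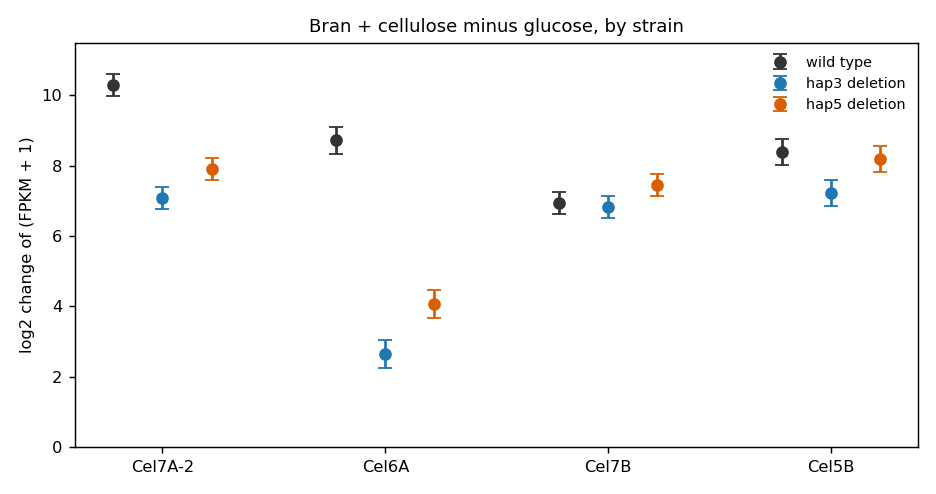
Difference between bran and cellulose and glucose on the log2(FPKM + 1) scale for the 4 genes with a value above 0 in every glucose library, by strain, with 95% intervals from limma. The 3 strains lie close together at Cel7B, between 6.83 and 7.45, and far apart at Cel6A, between 2.64 and 8.72.

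Interaction terms tested whether a deletion changed the response to the carbon source. Cel6A had the largest interaction, -6.08 in hap3 deletion cultures (SE 0.26, adjusted p = 4.25e-11) and -4.66 in hap5 deletion cultures (SE 0.26, adjusted p = 7.97e-10). It was made of a lower level on bran and cellulose and a higher level on glucose, -3.13 and 2.95 in hap3 deletion cultures and -1.82 and 2.84 in hap5 deletion cultures. Cel7A-2 had interactions of -3.21 (SE 0.21, adjusted p = 4.89e-09) and -2.39 (SE 0.21, adjusted p = 1.38e-07). For Cel5B the interaction in hap3 deletion cultures was -1.18 (SE 0.25, adjusted p = 0.000933), made of 0.24 on bran and cellulose and 1.42 on glucose, and in hap5 deletion cultures it was -0.21 (SE 0.25, adjusted p = 0.501) and not called.

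Cel7B had no called interaction in either strain, at -0.12 (SE 0.21, adjusted p = 0.649) and 0.50 (SE 0.21, adjusted p = 0.0524). Cel61A was not called in hap3 deletion cultures, at 0.78 (SE 0.17, adjusted p = 0.00104). Its interaction in hap5 deletion cultures was 1.02 (SE 0.17, adjusted p = 9.67e-05) and was called, but it rests on glucose values listed at or near 0 and was 0.10 with 0.1 as the added constant. It was also lost after scaling to the same FPKM total (0.97), after quantile normalization (0.94) and without replicate 3 of the hap5 deletion on either medium or of wild type on bran and cellulose (0.92 to 0.94). The interaction of Cel5B in hap3 deletion cultures was -0.86 and not called after quantile normalization, and that of Cel7B in hap5 deletion cultures was 1.07 and called. In all, 3 of 5 genes had a called negative interaction in hap3 deletion cultures, where 17.2% of tested genes had one. In the hap5 deletion 2 were negative and 1 positive, where 19.4% and 10.9% of tested genes were. Median-of-ratios scaling moved the median interaction of all genes in hap5 deletion cultures by 0.218, and the share of positive ones among its calls from 36.06% to 47.93%, with 48.74% after quantile normalization.

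Carbon responses of the deletion strains were also set against each other. Cel6A responded more in hap5 than in hap3 deletion cultures, by 1.42 (SE 0.26, adjusted p = 0.00277), the 1 call among the 5 genes, where 1.5% of tested genes were called higher. The share of higher genes among all calls, 31.86%, was 46.52% after median-of-ratios scaling, 48.83% after quantile normalization and 21.63% after scaling to the same total. Cel5B, at 0.97 (SE 0.25, adjusted p = 0.0178), and Cel7A-2, at 0.82 (SE 0.21, adjusted p = 0.0167), were under the minimum change. Cel5B crossed that minimum when libraries were scaled by median of ratios (1.08) or quantile normalized (1.24). Leaving out each library of the compared groups in turn gave Cel5B changes of 0.77 to 1.12. It was called in 6 of these omissions (1.00 to 1.12) and not in the others. Cel7A-2 crossed the minimum under quantile normalization (1.17).

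Summed over the 5 genes, FPKM on bran and cellulose was 4996 ± 371 in wild type, 3149 ± 442 in hap3 deletion cultures and 5378 ± 1199 in hap5 deletion cultures (SD, n = 3). The sum of the hap5 deletion, 4367 to 6703, overlapped that of wild type, 4601 to 5338, and the hap3 deletion, 2680 to 3558, lay below both. The make-up of the sum differed as well. The cellobiohydrolases together held 60.6% ± 0.965 of it in wild type, 17.5% ± 0.629 in hap3 deletion cultures and 23.1% ± 1.33 in hap5 deletion cultures. Cel61A held 11.9% ± 0.294, 32.7% ± 1.15 and 26.2% ± 2.17 in the same order. Cel5B held 16.1% ± 0.905, 30.3% ± 1.61 and 32.6% ± 1.34, and Cel7B 11.4% ± 0.326, 19.5% ± 0.769 and 18.1% ± 0.580. These are shares of FPKM, a value per length, and a share also rises when another gene of the sum falls. In hap3 deletion cultures the level of Cel5B overlapped wild type, while the cellobiohydrolases together had a mean of 549 FPKM, against 3024 FPKM in wild type. The labels' protocol describes tags from a fixed site, for which division by length bears on levels between genes and not on the change of 1 gene between libraries.

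**Figure D4:**
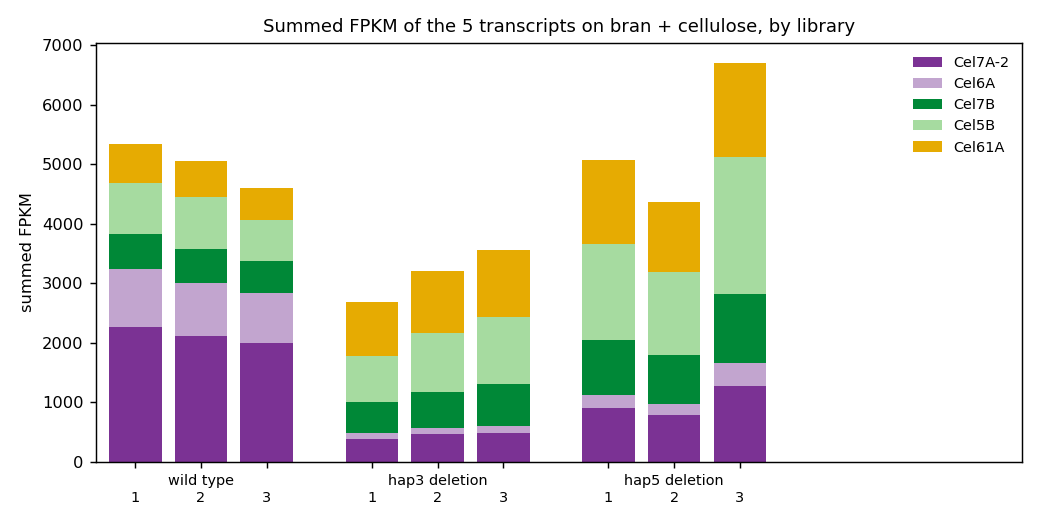
FPKM of the 5 genes stacked for each of the 9 bran and cellulose libraries, with the replicate number under each bar. The cellobiohydrolases (2 lowest segments) make up 59.5% to 61.5% of each wild type bar and 16.8% to 24.6% of each deletion bar.

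The order of the levels changed with the strain. Wild type on bran and cellulose ran from Cel7A-2 through Cel6A, Cel5B and Cel61A to Cel7B by mean FPKM. Cel6A and Cel5B overlapped in range there, although Cel6A was higher in 3 of 3 libraries, and Cel61A and Cel7B overlapped and changed places in 1 library. The hap3 deletion ran from Cel61A through Cel5B, Cel7B and Cel7A-2 to Cel6A, where Cel61A and Cel5B overlapped. The hap5 deletion ran from Cel5B through Cel61A, Cel7A-2 and Cel7B to Cel6A, and only Cel6A was free of overlap with its neighbour in the order. On glucose Cel7B was the highest in all 3 wild type libraries, and Cel5B was above Cel6A in 2 of them with overlapping ranges.

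Ratios within a library compare the genes without differences in library scale. The FPKM ratio of Cel6A to Cel7A-2 on bran and cellulose was 0.423 to 0.428 in wild type, 0.227 to 0.235 in hap3 deletion cultures and 0.246 to 0.289 in hap5 deletion cultures. The deletion ranges of this ratio did not reach the wild type range. The ratio of Cel5B to Cel7A-2 was 0.353 to 0.408 in wild type, 1.97 to 2.32 in hap3 deletion cultures and 1.79 in each library of the hap5 deletion. Between the endoglucanases the ratio of Cel5B to Cel7B was 1.3 to 1.5 in wild type, 1.44 to 1.66 in hap3 deletion cultures and 1.72 to 1.96 in hap5 deletion cultures. For the endoglucanases the hap3 deletion overlapped wild type and the hap5 deletion did not.

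Replicates of a bran and cellulose group ranked in the same order at all 5 genes. Replicate 3 of the hap5 deletion was the highest of its group at every gene, at 114% to 140% of the group mean, and replicate 2 the lowest, at 72.7% to 84.6%. This ranking held for 14% of tested genes in that group. In the hap3 deletion replicate 3 was highest and replicate 1 lowest at all 5 genes, a ranking held by 12.5% of tested genes, and in wild type replicate 1 was highest and replicate 3 lowest, held by 13.3%. The 5 genes share the spread of a group and are not separate replicates of a strain. The FPKM totals of the hap5 deletion libraries on this medium were 1026541, 1009389 and 989096 for replicates 1, 2 and 3, lowest where the 5 genes were highest, and their part in this spread was not tested.

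**Figure D5:**
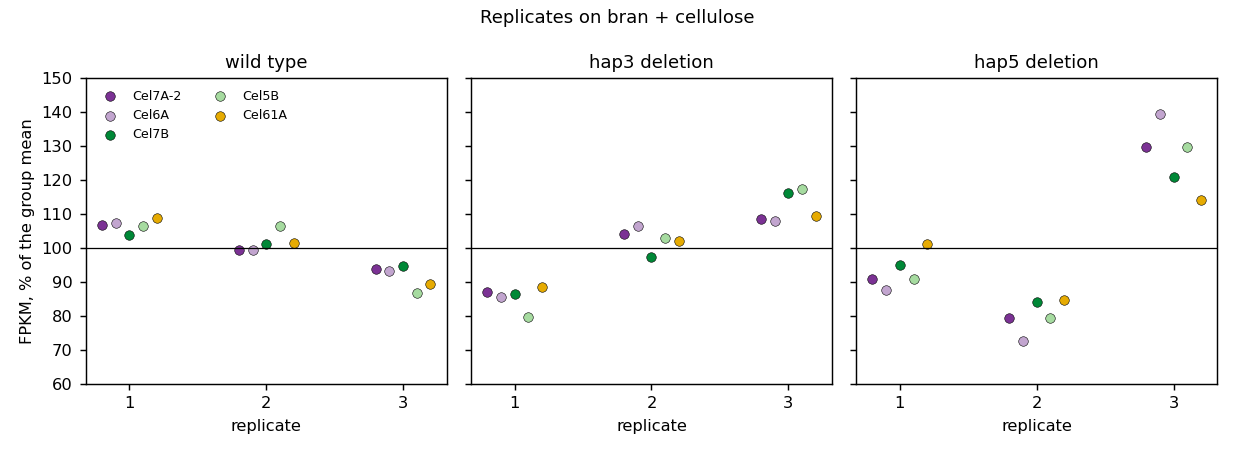
FPKM of each gene in each bran and cellulose library as a percentage of the mean of its group of 3 libraries, by strain and replicate number; the line marks the group mean. All 5 genes lie highest in replicate 3 of the hap5 deletion, at 114% to 140% of the mean, and lowest in its replicate 2.

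Genes with the most alike pattern over the 18 libraries were sought by the root mean square difference of centred log2(FPKM + 1) profiles, among 7603 other genes with a group mean of at least 10 FPKM. The nearest to Cel7B was PDE_07928, at 0.457 log2 units, whose identifier is the one before it. PDE_07928 stood at 1009 ± 57.5 FPKM in wild type, 548.7 ± 53.8 in hap3 deletion cultures and 846.1 ± 164.7 in hap5 deletion cultures on bran and cellulose, and at 3.5 to 5.15 FPKM by group mean on glucose. The nearest to Cel7A-2 was PDE_00607, at 0.535 log2 units, with 5068 ± 595, 700.9 ± 107 and 1102 ± 282 FPKM on bran and cellulose in wild type, the hap3 deletion and the hap5 deletion. The nearest to Cel6A was PDE_00753, at 0.571 log2 units, with 1686 ± 93.2, 337.8 ± 20.4 and 482.2 ± 51.2 FPKM.

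The 5 genes were not all nearest to one another. Cel7B was the nearest gene to Cel5B, at 0.610 log2 units, and Cel5B was the nearest to Cel61A, at 1.06. Cel7A-2 had Cel5B second, at 0.851. The profiles span both media, so nearness need not mean a like change with a deletion. On bran and cellulose, deletion of hap5 changed Cel7A-2 by -1.13 and Cel5B by 1.10, whereas PDE_00607 fell with Cel7A-2, by -2.22. Cel6A had no other member near it: its closest among the 5, Cel7B at 1.65, was 124th of the 7603 genes. The other genes on these lists of 3 were PDE_05527 for Cel7A-2 (0.871), PDE_04297 and PDE_02102 for Cel6A (0.717 and 0.744) and PDE_08440 and PDE_05194 for Cel7B (0.505 and 0.579). The sources used here give these identifiers no name or role. With hap5 deleted, PDE_08440 was lower on bran and cellulose (-0.65) and Cel7B higher (0.75), neither of them called.

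Genes with identifiers within 5 of a member's were counted in the same comparisons. Identifier numbers were taken as given, and their order along the genome was not checked. The wild type response to bran and cellulose was called higher in 6 of 10 tested around Cel5B, 4 of 9 around Cel7B, 3 of 8 around Cel7A-2, 1 of 7 around Cel6A and 1 of 10 around Cel61A, beside 23.2% of all tested genes. On glucose, 7 of 10 around Cel5B were called higher in hap3 deletion cultures and 5 of 10 in hap5 deletion cultures, the direction of Cel5B. Around Cel6A it was 3 of 7 and 4 of 7, also the direction of the member, and around Cel7A-2 it was 3 of 8 in both, beside 15.3% and 17.6% of all tested genes. Around Cel7B it was 0 of 9 in both, and around Cel61A 2 of 10 in both.

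On bran and cellulose, 13.4% of all tested genes were called lower and 16.7% higher in hap3 deletion cultures, and 13.2% and 16.4% in hap5 deletion cultures, which are the shares to set beside the counts that follow. Of 10 tested around Cel5B, 5 were lower and 2 higher in each deletion on bran and cellulose, and the 5 lower ones were the 5 that follow Cel5B, which itself was not lower. PDE_09228 was the lowest of them in both comparisons, from 912.0 ± 266 FPKM in wild type to 5.96 ± 0.314 in hap3 deletion cultures (log2 change -6.99, SE 0.41, limma adjusted p = 5.95e-10) and 6.603 ± 0.293 in hap5 deletion cultures (-6.86, SE 0.41, adjusted p = 7.59e-10). Around Cel7A-2, 0 of 8 tested were lower and 3 and 4 were higher in the hap3 and hap5 deletions. PDE_07946, the next identifier, rose from 30.76 ± 2.16 FPKM in wild type to 184.6 ± 27.4 and 321.7 ± 46.8 FPKM, where Cel7A-2 fell. Around Cel6A, 0 of 7 were lower and 4 higher in each deletion on this medium, where Cel6A itself was lower.

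Around Cel7B, 1 of 9 tested was lower and 1 higher in each deletion on bran and cellulose, near the shares over all tested genes. PDE_07927 rose from 158.1 ± 10.5 FPKM in wild type to 1660 ± 178 in hap3 deletion cultures and 1836 ± 174 in hap5 deletion cultures, while PDE_07930 fell from 96.56 ± 28.4 to 24.74 ± 1.65 and 24.09 ± 2.89 FPKM. Around Cel61A, 0 of 10 were lower and 2 and 3 were higher in the hap3 and hap5 deletions, beside 16.7% and 16.4% of all tested genes. PDE_05637 rose there from 40.01 ± 15.3 FPKM to 131.8 ± 34.1 and 134.1 ± 1.51 FPKM.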

How the data were processed

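The measurements are FPKM per gene in 18 libraries, in 1 table the authors deposited. The labels' protocols describe oligo(dT)-selected cDNA cut with NlaIII and MmeI, that is tag libraries, while FPKM is made for reads along a transcript. The sources used here do not give the aligner, counter, build or annotation, so whether fragments were split between related genes such as other Cel7 family members was not tested. Strain, medium and replicate number in a column name gave its sample. The second medium is abbreviated differently in the table and in the titles and was matched by elimination. Of 9277 identifiers 0 matched the reference gene table of another strain, so names come from the rule that chose the 5 genes, and coordinates and sequences were not used here.

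Depth was sought in low values: ratios to 1 wild type library gathered within 0.02 log2 units for at most 12.3% of low genes, so whole reads were not recovered. No 2 libraries were identical. Testing was limited to the 8681 genes, all 5 members among them, that reached 1 FPKM in 3 or more libraries. Group means of log2(FPKM + 1) over 18 libraries were fitted in limma 3.58.1 (R 4.3.3) with an intensity trend, with no replicate block, with Benjamini-Hochberg adjustment over all tested genes for each of 12 comparisons. The fit was also run on simulated data with independent normal noise and changes placed only in genes well above 0 FPKM. That run does not bear on values near 0 or on spread shared between genes. Intervals are 95% intervals of the fit. The rule for named genes took the 5 members, the 3 most alike genes of each, and genes within 5 identifiers of a member that were called on bran and cellulose against wild type with a group mean of at least 10 FPKM. Only some of the neighbours that met this rule are named in the text. Members and lists were chosen with earlier results of these data known. Other genes of the pathway were not counted, since the sources pair no other identifier with a role. Alternatives were an added constant of 0.1, no filter, a filter of 5 FPKM, 3 scalings, the block by replicate number, fitting the compared groups alone and leaving out each library.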

Additional observations from a re-analysis of the deposited data

Results flagged for a closer look

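Carbon responses that differed between strains by the interaction test, in log2 units with the limma test over 18 libraries, were as follows. In the hap3 deletion against wild type they were -6.08 for Cel6A, -3.21 for Cel7A-2 and -1.18 for Cel5B. In the hap5 deletion against wild type they were -4.66 for Cel6A, -2.39 for Cel7A-2 and 1.02 for Cel61A. Between the deletion strains it was 1.42 for Cel6A, higher in the hap5 deletion. The value for Cel61A rests on glucose libraries listed at or near 0. That for Cel5B was made of 0.24 on bran and cellulose and 1.42 on glucose, and was -0.86 and not called after quantile normalization. Groups of 3 libraries are too small for the test of a single sample that stands apart.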

How the results depend on the processing

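Of 930 recomputed values of the 5 genes over the 12 comparisons, 885 kept their direction and side of the threshold, 16 lost a call, 16 gained one and 13 changed sign; the causes were not tested. The signs that changed belonged to changes that were not called: under quantile normalization Cel7B against wild type on glucose (-0.20 hap3, -0.42 hap5) and on bran and cellulose (-0.0082 hap3), its interaction in the hap3 deletion (0.19), that of Cel5B in the hap5 deletion (0.38) and Cel7B between deletions on glucose (-0.22, and -0.063 after median-of-ratios scaling). Leaving out 1 library gave Cel7B in hap3 deletion cultures on bran and cellulose -0.010 to 0.20, the lowest without replicate 3. Between deletions on glucose it gave Cel7B -0.088 to 0.094 and Cel5B -0.18 to 0.029. With 0.1 added, the carbon response of Cel61A between deletions was -0.68. The number of the 5 genes called moved from 2 (hap3) and 3 (hap5) to 1 and 1 on glucose under quantile normalization. Between deletions it moved from 0 to 1 on glucose with 0.1 added, from 2 to 0 on bran and cellulose in a fit on the compared groups, and for the carbon response from 1 to 2 (median-of-ratios) and 3 (quantile). Leaving out 1 library gave 1 to 3 calls on bran and cellulose and 1 to 2 for the carbon response. Over all genes, calls between deletions went from 348 to 135 on glucose and from 41 to 18 on bran and cellulose in a fit on the compared groups, and from 41 to 26 and 25 without hap3 deletion replicates 1 and 2. Same-numbered libraries did not pair: 1 of 45 correlations of their deviations exceeded 0.1 (range -0.122 to 0.202), and with the replicate block the number of the 5 genes called was 2, 3, 2 and 4 in the comparisons with wild type, and it changed no call of theirs in any of the 12 comparisons. Levels under 1 FPKM on glucose, Cel61A most of all, are limited by unknown depth.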
